A study of Arabidopsis thaliana with 3 samples.

Results

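Transcripts of cytosolic 40S ribosomal protein genes were followed in rosette leaves of Arabidopsis thaliana. The set was a list of 60 loci in 21 protein families, found on the array by going from each feature to its Entrez gene and from there to a RefSeq locus. Of the 60 loci, 45 had a feature, 51 features in all, among the 28785 features of the array. The families S5, S6 and SA had no feature paired with them, and neither did AT1G04270 (S15), AT5G41520 (S10), AT3G48930 and AT5G23740 (S11), AT4G00100 (S13), or AT1G07770, AT2G19720, AT3G46040 and AT4G29430 (S15a). Families were assigned from general knowledge of these loci, since the tables give most of them no protein name.

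Each of the 3 samples was total RNA on 1 one-colour array, from plants aged 2 weeks of the accession Col-0. Wild type gave 1 array. The other arrays came from transgenic plants that carry the numbers 41 and 45 in the labels (line 41 and line 45 below), in which the 35S promoter, active in most plant tissues, drives AtMYB23SRDX. MYB23 belongs to the MYB transcription factors and takes part in trichome formation, and SRDX is a repression domain that makes a fused factor act as a repressor. The labels do not say how many plants were pooled or whether cultures were separate, so p-values rest on how far the 2 lines differ, which may be technical. Wild type was assumed to vary like the lines, and anything particular to its lone array enters every change given here.

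The 40S subunit is the part of the ribosome that binds messenger RNA, scans for the start codon and holds the decoding centre, where codons are matched to transfer RNAs. It is built from the 18S ribosomal RNA and a fixed set of small, mostly basic proteins, each present once per subunit. In Arabidopsis each of these proteins is encoded by a small family of paralogs whose products are often nearly identical, and the genes are known for high transcript levels in growing tissue. Most of the proteins named here lie in the head of the subunit with its beak, in the body that carries the entry of the messenger RNA channel, or on the platform near its exit.

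Values are the deposited log2 signals, so a difference of 1 is 2-fold. The dim level used to mark features was 5.64, the 40th percentile of feature means, and 17271 features passed it as a mean over the arrays. With 1 feature kept for each named gene, 16905 were tested, 9681 of them with a RefSeq locus. Medians of the 3 arrays lay between 5.89 and 5.96, while the 99th percentile was 9.62 in wild type against 10.63 in line 41 and 10.54 in line 45. Leaf identity rested on few markers. RCA, the activase of Rubisco, and the antenna genes LHCB4.1 and LHCB4.2 lay between 8.64 and 14.13, whereas both features of the antenna gene LHB1B2 lay under the dim level on all arrays. These were 4 of 18 leaf markers, and of the markers of other tissues 1 of 15 for dividing and meristem cells and 2 of 8 for root had a feature, with 0 of 8 for flower and 0 of 8 for seed. In bulk leaf, fewer cells of a type and less RNA per cell cannot be told apart.

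Most measured 40S genes stood far above wild type in both lines, and the 10 greatest rises lay between 6.44-fold and 13.5-fold. Of the 42 genes past the dim filter, limma called 32 higher and 0 lower at an adjusted p under 0.05 (Benjamini-Hochberg over all features tested), where 14.6% of all features were called higher and 7.27% lower. At an unadjusted p under 0.05 the counts were 35 higher and 0 lower, against 19.8% and 15.4% of all features. By size, 26 of the 42 were at least 2-fold higher in both lines against 9.77% of all features, 16 at least 4-fold against 2.95%, and 5 at least 8-fold against 0.568%. Both lines lay above wild type in 39 of the 42, against 39.1% of all features. The median log2 change was 1.53 over these genes and -0.04 over all features tested, and with the 3 dim genes kept it was 1.43 over 45 genes. AT5G07090, dim in wild type, had passed the filter through the lines alone, and AT5G15520 through line 45 alone. When features were kept by their wild-type value instead, limma called 32 of 40 genes higher. These were not the same 32, since AT5G07090 was no longer tested and AT5G09500 gained a call (limma adjusted p = 0.0495). With no dim filter at all, but the floor kept, limma called 0 of 45 genes higher or lower and 0 of 28124 features, with 32 of the 45 higher at an unadjusted p under 0.05.

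**Figure D1:**
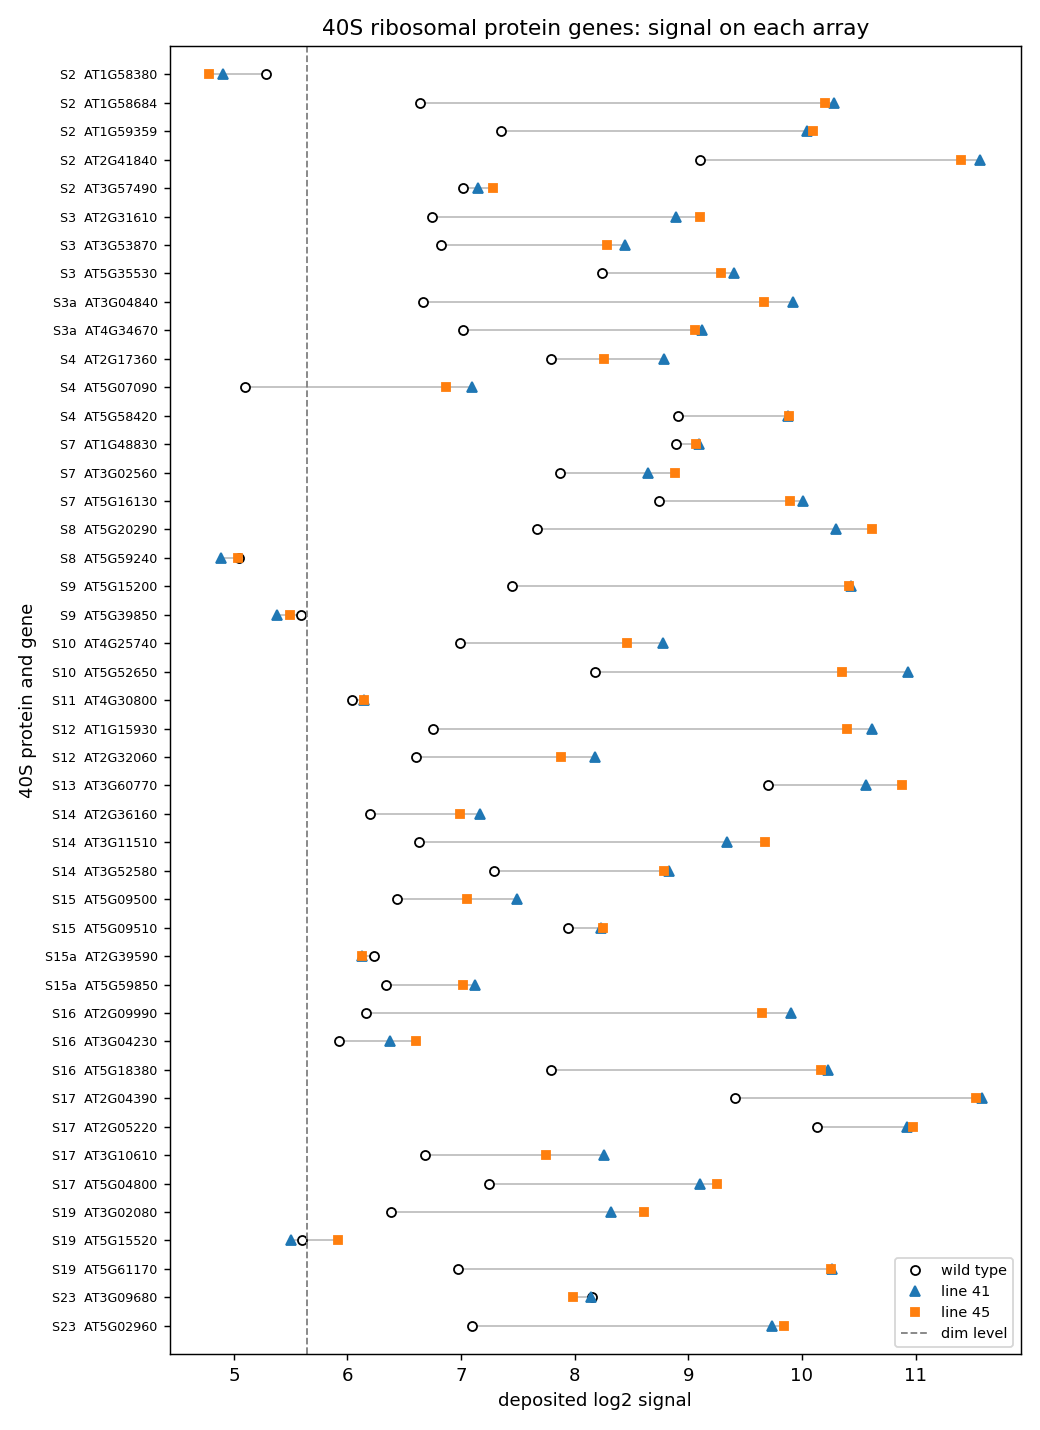
Deposited log2 signal (x axis) of the 45 genes with a feature (y axis, by family), with wild type as open circles, line 41 as triangles and line 45 as squares, and the dim level of 5.64 as a dashed line. In most rows both lines lie to the right of wild type and close to each other, and 3 genes lie under the dim level on all arrays.

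Proteins of the messenger RNA entry and the decoding centre include S2, S3, S9, S23 and S15. S2 lines the entry of the messenger RNA channel and bears on decoding accuracy, and its 5 loci all had a feature. AT1G58684 stood at 6.64 in the wild-type array, at 10.29 in line 41 and at 10.21 in line 45, and rose 12.2-fold (log2 change 3.60 ± 0.23 SE with n = 2 lines and 1 wild-type array, limma adjusted p = 0.000288). AT1G59359 went from 7.35 to 10.04 and 10.10 (2.72 ± 0.23) and AT2G41840 from 9.10 to 11.57 and 11.40 (2.38 ± 0.24). In these 3 genes the lines lay close together and far from wild type. AT3G57490 did not pass, at 7.02 in wild type against 7.15 and 7.28 in the lines (adjusted p = 0.585). AT1G58380, which RefSeq names XW6, was dim on all arrays, at 5.29, 4.91 and 4.78, and was not tested. It lies near AT1G58684 and AT1G59359 on the same chromosome, with 18 genes between the first pair and 15 between the second in the RefSeq table, and such close copies may share signal on an array.

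S3, another protein of the entry channel, was measured by all of its 3 loci, and all 3 were called higher. AT2G31610 had the greatest rise, from 6.75 to 8.89 in line 41 and 9.10 in line 45 (log2 change 2.25 ± 0.23). AT3G53870 went from 6.83 to 8.44 and 8.28 (1.54 ± 0.23), and AT5G35530 from 8.24 to 9.40 and 9.28 (1.10 ± 0.23, adjusted p = 0.0132 by limma). Both lines lay above wild type in each S3 gene, as they did in 39.1% of all features. The changes of AT2G31610 and AT5G35530, picked as the extremes of the family, did not overlap with each other.

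S9, which sits beside the messenger RNA entry in the body, gave a sharp contrast between its genes. AT5G15200 rose 7.87-fold, from 7.45 in wild type to 10.43 in line 41 and 10.42 in line 45 (log2 change 2.98 ± 0.23, adjusted p = 0.000303 by limma). AT5G39850 was dim on all arrays, at 5.59, 5.38 and 5.50, and was not tested. S23, a protein of the decoding centre itself, showed a contrast between well-measured genes: AT5G02960 rose 6.44-fold, from 7.10 to 9.74 and 9.84 (2.69 ± 0.23). Its paralog AT3G09680 stayed near its wild-type value of 8.15, at 8.14 and 7.99 in the lines (limma adjusted p = 0.831). S15, whose tail reaches toward the decoding site from the head, had no gene of the list that passed. AT5G09500 stood at 6.44, 7.49 and 7.05 (0.83 ± 0.25, adjusted p = 0.0523), and AT5G09510, the next gene along the chromosome, at 7.94, 8.23 and 8.25 (0.30, adjusted p = 0.380). AT5G09500 did pass under some other settings, with an adjusted p of 0.0160 after centring on the median.

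In the head and beak, S10, S12, S16, S17 and S19 were measured. The greatest change of all 40S genes belonged to a feature of AT1G15930, for S12 of the beak, which went from 6.75 to 10.61 in line 41 and 10.39 in line 45. That is a 13.5-fold rise (log2 change 3.75 ± 0.24, adjusted p = 0.000288 by limma), but a second feature of the gene, described further on, stood at 0.43. The other S12 gene, AT2G32060, went from 6.60 to 8.18 and 7.88 and rose 2.70-fold (1.43 ± 0.24). For S10, a neighbour of S12 in the beak, both measured genes rose: AT5G52650 from 8.18 to 10.94 and 10.35 (2.46 ± 0.30), and AT4G25740 from 6.99 to 8.78 and 8.46 (1.63 ± 0.24). In both S10 genes line 41 lay above line 45, and AT5G52650 had the greatest difference between the lines among the tested 40S genes, 0.59.

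S16, whose tail contacts the transfer RNA in the P site, had 2 of 3 genes called higher. AT2G09990 rose 12.2-fold, from 6.16 to 9.90 in line 41 and 9.65 in line 45 (log2 change 3.61 ± 0.24, adjusted p = 0.000288 by limma). AT5G18380 went from 7.79 to 10.23 and 10.17 (2.41 ± 0.23), and AT3G04230, which did not pass, from 5.93 to 6.38 and 6.60 (0.56 ± 0.21, adjusted p = 0.104). S19, a head protein needed for maturation of the subunit and best known in humans from Diamond-Blackfan anaemia, again split: AT5G61170 rose 9.74-fold, from 6.97 to 10.26 and 10.25 (3.28 ± 0.23). AT3G02080 rose from 6.38 to 8.32 and 8.61 (2.08 ± 0.24). AT5G15520 straddled the dim level, at 5.60, 5.50 and 5.92, and did not pass (adjusted p = 0.771).

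For S17, another protein of the head, limma called all 4 genes higher. AT2G04390 went from 9.41 to 11.58 and 11.53 (log2 change 2.14 ± 0.23), AT5G04800 from 7.25 to 9.10 and 9.26 (1.93 ± 0.23) and AT3G10610 from 6.68 to 8.26 and 7.75 (1.32 ± 0.27). These 3 also passed under the 4 other scalings. AT2G05220 went from 10.13 in wild type to 10.93 and 10.98 in the lines (0.82 ± 0.23, adjusted p = 0.0411 by limma), but its sign turned after quantile normalization (-0.30, adjusted p = 0.304) and cyclic loess (-0.16, adjusted p = 0.712).

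The platform and exit side carry S3a, S14 and S7. Both S3a genes rose, AT3G04840 by 8.77-fold from 6.66 to 9.92 and 9.67 (log2 change 3.13 ± 0.24) and AT4G34670 by 4.22-fold from 7.01 to 9.12 and 9.05 (2.08 ± 0.23). All 3 genes of S14, which lies on the platform, rose as well, but by unequal amounts. AT3G11510 rose 7.36-fold, from 6.63 to 9.34 and 9.67 (2.88 ± 0.25), AT3G52580 2.87-fold and AT2G36160 1.84-fold, the last from 6.20 to 7.17 and 6.99 (0.88 ± 0.22, adjusted p = 0.0251 by limma). Of the S7 genes 2 of 3 were called: AT5G16130 rose 2.31-fold and AT3G02560 1.86-fold (adjusted p = 0.00934 and 0.0324), while AT1G48830 stood at 8.89, 9.10 and 9.07 (0.19, adjusted p = 0.601). After quantile normalization AT1G48830 stood at -0.33 and AT3G02560 no longer passed (0.60, adjusted p = 0.0704), and after cyclic loess AT5G16130 did not (0.70, adjusted p = 0.0591).

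Proteins of the body gave both strong and weak changes. S8 had a contrast like that of S9: AT5G20290 rose 6.92-fold, from 7.67 to 10.30 in line 41 and 10.61 in line 45 (log2 change 2.79 ± 0.25, adjusted p = 0.000397 by limma). The other S8 gene, AT5G59240, was dim throughout, at 5.04, 4.89 and 5.04, and was not tested. For S4, AT5G07090 rose at least 2.53-fold (1.89 ± 0.22 as measured), from a dim 5.09 in wild type to 7.10 and 6.86. The bound raises the wild-type value to the dim level. AT5G58420 went from 8.91 to 9.88 and 9.89 (0.97 ± 0.23, adjusted p = 0.0212) but stood at 0.33 after quantile normalization (adjusted p = 0.265), and AT2G17360 did not pass, at 7.79, 8.79 and 8.25 (adjusted p = 0.104).

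For S13, AT3G60770 was the only gene with a feature, and it went from 9.70 to 10.57 in line 41 and 10.88 in line 45 (log2 change 1.02 ± 0.25, adjusted p = 0.0251 by limma). That call did not hold after quantile normalization, where the change was 0.03 (adjusted p = 0.945). S15a, a small protein of the body, was measured by 2 of its 6 loci. AT5G59850 rose 1.66-fold, from 6.34 to 7.12 and 7.02 (0.73 ± 0.21, adjusted p = 0.0462), and missed the threshold after centring on the 75th percentile (adjusted p = 0.0557). AT2G39590 stood at 6.23, 6.13 and 6.13 (-0.10, adjusted p = 0.761), with 0.0057 after cyclic loess. The only S11 gene with a feature, AT4G30800, stood at 6.04 in wild type and at 6.14 in both lines (adjusted p = 0.763). Its line values were identical as deposited, as in 18 features of the whole array.

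Within families the paralogs changed unequally. Of the 16 families with 2 or more genes on the array, 6 had all of their measured genes called higher (S3, S3a, S10, S12, S14 and S17), 9 had some called and some not, and 1, S15, had none. S12 counts among the 6 through 1 of the 2 features of AT1G15930, and with the other that gene is not called. Only loci of the list enter here, and AT1G33850, a further S15 copy outside it, fell (-0.77, limma adjusted p = 0.0373). The distance between the most and the least changed listed gene of a family had a median of 1.66 on the log2 scale. It ran from 0.53 in S15 to 4.04 in S2. It was at least 1 in 13 families and at least 2 in 7 (S2, S8, S9, S12, S16, S19 and S23), though with the other feature of AT1G15930 the S12 distance was 0.9999. In all 16 families both line changes of the most changed gene lay above both of the least changed gene. These genes were picked as extremes by those same changes, so the outcome was nearly fixed beforehand and is only a description. With 1 array against 2, an exact permutation test of one value cannot give a p below 0.333, so differences between paralogs were not tested. In S2, S8 and S9 the lowest gene was dim on all arrays, so the distance there is set partly by a feature with little signal. In S16, S19 and S23 the lowest gene passed the dim filter, and the distances were 3.05, 3.17 and 2.77. The S19 gene, AT5G15520, passed through line 45 alone and was dim in wild type and line 41. The S19 distance is thus also set partly by a feature with little signal.

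**Figure D2:**
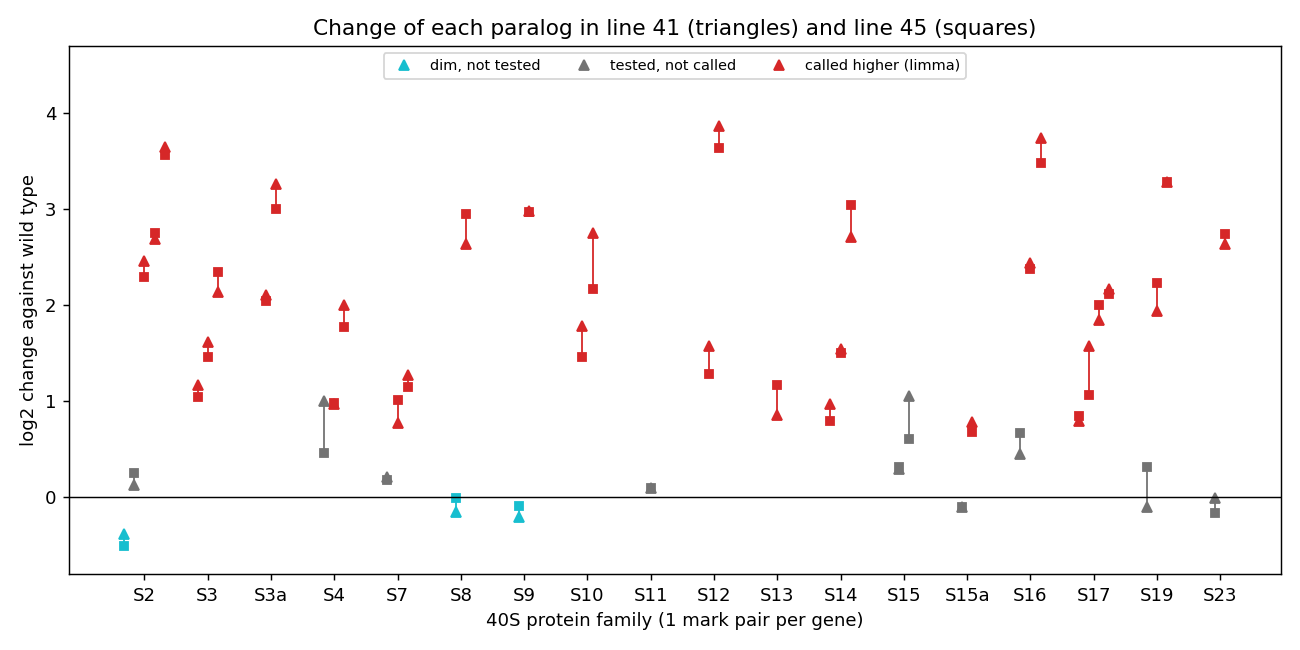
Log2 change against wild type (y axis) of each gene with a feature, by 40S family (x axis), with line 41 as triangles and line 45 as squares. Red genes were called higher by limma, grey genes were tested and not called, and blue genes were dim and not tested. In S2, S19 and S23 a gene called higher stands beside a tested gene that was not called (mean changes of 0.19, 0.11 and -0.09), and in S8 and S9 beside a dim one.

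How far features of a single gene can differ was read from the whole array. In 345 genes with several features past the dim filter, the distance between the most and the least changed feature of a gene had a median of 0.32 and a 90th percentile of 0.91, and 30 genes (8.70%) reached 1. AT1G15930 had the greatest distance of all 345 genes, 3.32. Its second feature went from 8.35 to 8.77 in line 41 and 8.80 in line 45, a change of 0.43 (adjusted p = 0.218 by limma with all features kept apart). The rise of AT1G15930 therefore rests on 1 of 2 features that disagree, and which transcripts either feature captures is not given in the sources used here. With the feature brightest in wild type standing for each gene, an alternative added after seeing this, 31 of the 42 genes were called higher.

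The other 40S genes with several features differed less. AT5G04800 (S17) had features at 1.93 and 1.69, both past the threshold. AT2G32060 (S12) had features at 1.43 and 1.77. The feature at 1.77 was dim in wild type, at 5.48, passed the filter through the lines alone and rose at least 3.05-fold. The remaining feature of this gene was dim on all arrays, at 4.92, 4.86 and 4.74. In S7, AT3G02560 had features at 0.89 and 0.63, and AT1G48830 at 0.19 and 0.59. The second feature of neither S7 gene passed with all features kept apart (adjusted p = 0.185 and 0.111 by limma).

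**Figure D3:**
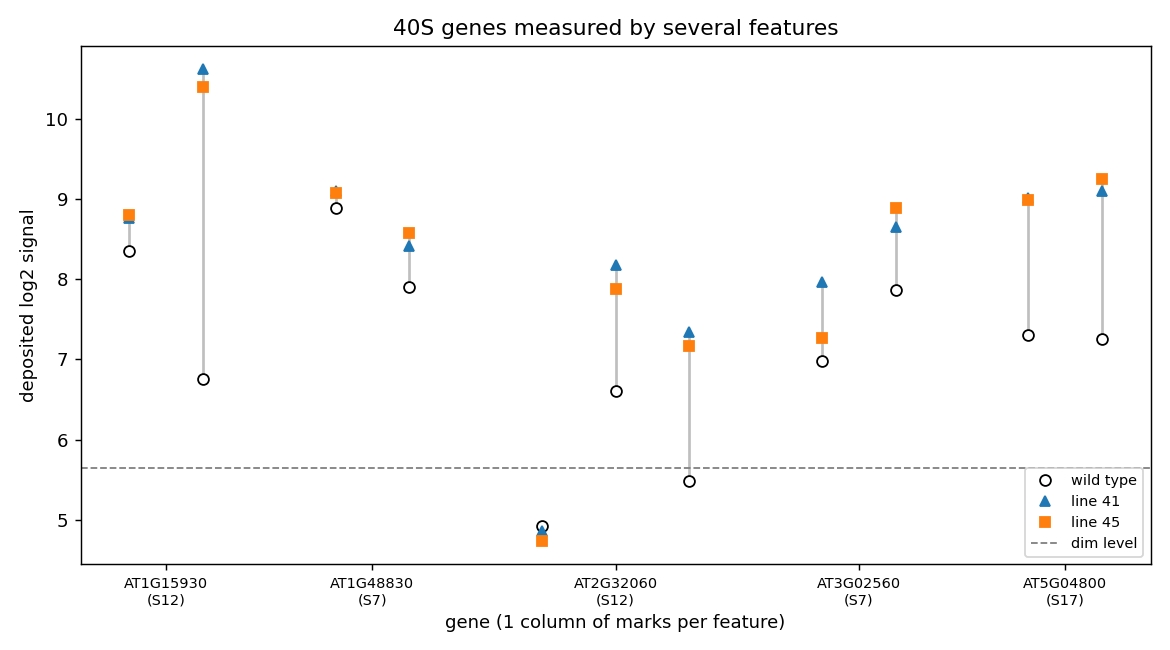
Deposited log2 signal (y axis) of the 5 genes with several features (x axis, 1 column of marks per feature), in wild type (circles), line 41 (triangles) and line 45 (squares), with the dim level dashed. The features of AT1G15930 disagree, at 3.75 and 0.43 above wild type, while those of AT5G04800 run side by side.

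The lines were then set against each other. None of the 42 tested 40S genes differed 2-fold between line 41 and line 45, where 0.491% of all features did, so the count is at the background share. The absolute difference had a median of 0.16 and a maximum of 0.59, against a median of 0.18 over all features tested. Line 41 was furthest above line 45 in AT5G52650 (S10, 0.59), AT2G17360 (S4, 0.53) and AT3G10610 (S17, 0.51). Line 45 was furthest above line 41 in AT5G15520 (S19, -0.42), AT3G11510 (S14, -0.34) and AT5G20290 (S8, -0.31). These differences have no test, since each line had 1 array. The median change against wild type was 1.60 in line 41 and 1.46 in line 45.

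Other genes of the translation machinery were read from lists written from general knowledge. Among 39 further 40S loci, which cover proteins such as S18, S21 and S29 and the scaffold RACK1, 26 were tested, 17 rose and 1 fell, with a median log2 change of 0.95, beside 14.6% of all features called higher and 7.27% lower. AT1G34030 (S18) went from 5.47 to 8.90 in line 41 and 8.71 in line 45, a rise of at least 8.96-fold (adjusted p = 0.000288 by limma), and AT3G44010 (S29) rose at least 4.13-fold. Both are dim in wild type and entered the test through the lines alone (2 of the 17). AT5G27700 (S21), at 5.86 in wild type, rose 5.49-fold. The gene that fell, AT1G33850, a further S15 copy, went from 7.41 to 6.68 and 6.59 (-0.77 ± 0.21, adjusted p = 0.0373).

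Among 118 loci of the large subunit 86 were tested, 55 rose and 0 fell, with a median of 1.35, against the same shares of 14.6% and 7.27% over all features. Of the 55, 1 was dim in wild type and entered the test through the lines alone. Of 38 loci for initiation factors that act on the small subunit 11 were tested, 6 rose and 0 fell, but 4 of the 6 were dim in wild type and entered the test through the lines alone. Among these 4 were EIF4A-2, the helicase subunit of the cap-binding complex, which rose at least 2.04-fold. They also included AT2G40290, for the alpha subunit of eIF2, and AT5G54940, for eIF1. The called factors above the dim level in wild type were AT4G27130, which rose 2.35-fold, and AT5G54760, which rose 2.32-fold. Of 16 loci for subunit assembly and the S6 kinase pathway 4 were tested and 2 rose, RAPTOR1, a partner of the TOR kinase, by 2.51-fold (1.33 ± 0.24, adjusted p = 0.00723) and AT3G51270, for the assembly kinase RIO2, dim in wild type.

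**Figure D4:**
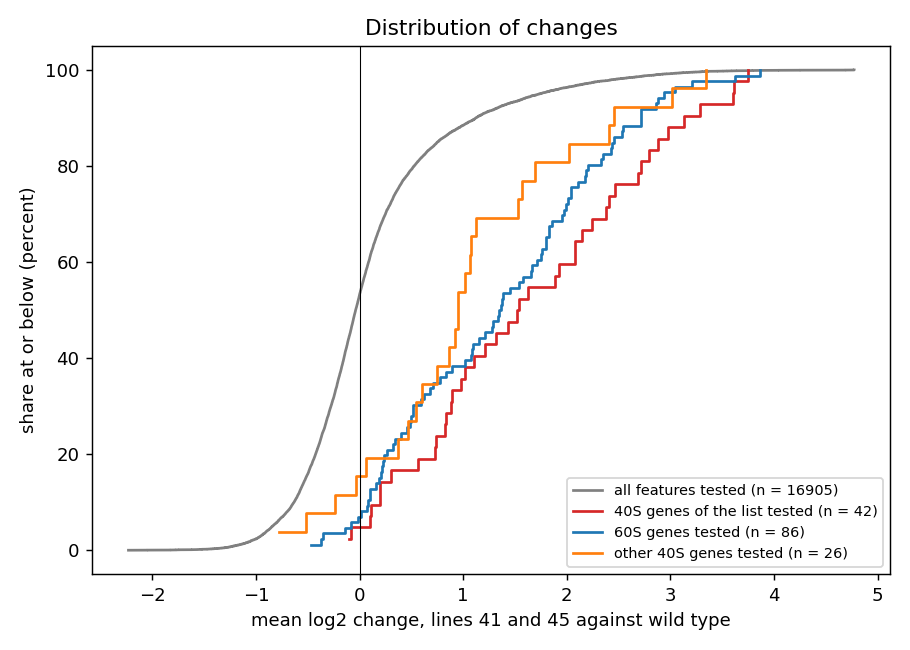
Share of features or genes (y axis, percent) at or below a given mean log2 change of the lines against wild type (x axis), for all 16905 features tested, the 42 tested 40S genes, 86 genes of the large subunit and 26 further 40S genes. The ribosomal curves lie to the right of all features, with medians of 1.53, 1.35 and 0.95 against -0.04.

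The calls were counted again under 4 other scalings of the arrays. Limma called 29 of the 42 genes higher after quantile normalization, 34 after centring on the median, 31 after centring on the 75th percentile and 30 after cyclic loess, with 0 lower under each of these. Of the 32 genes called with values as deposited, 26 were called under all 4 other scalings. Over all features 2468 calls were higher and 1229 lower with values as deposited (66.8% higher), and 2602 and 2660 after quantile normalization (49.4% higher), which makes the upper ends of the arrays equal, and the 40S median was then 1.32. The 6 that were lost under at least 1 scaling were AT2G05220, AT3G60770, AT5G58420, AT5G16130, AT3G02560 and AT5G59850. After quantile normalization AT2G04390 went from 2.14 to 1.14 and AT2G41840 from 2.38 to 1.50, and both still passed.

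**Figure D5:**
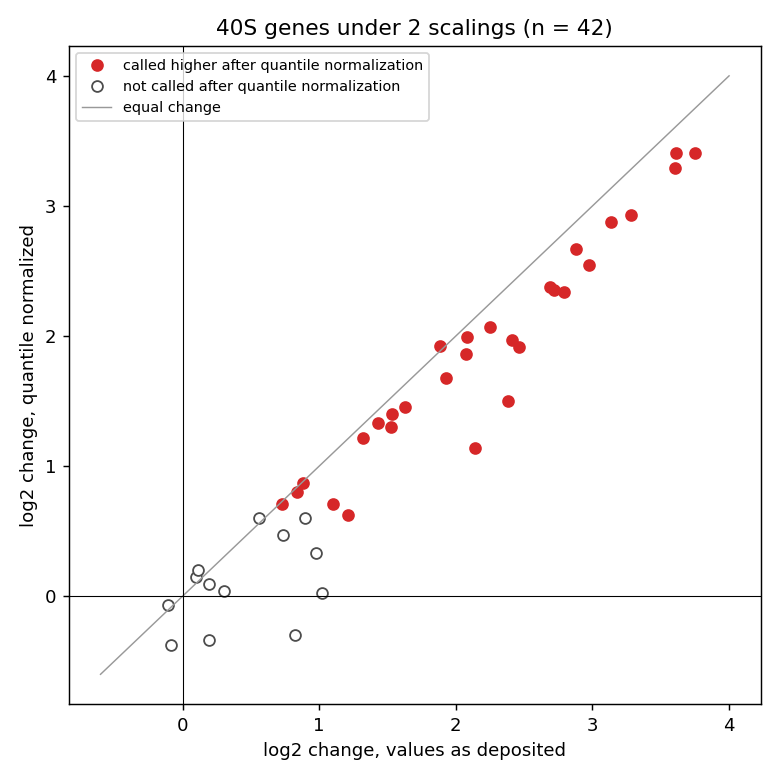
Mean log2 change of the 42 tested 40S genes with values as deposited (x axis) and after quantile normalization (y axis). Filled points were called higher after quantile normalization, and most points lie under the line of equal change, and 28 of the 29 filled points were also called with values as deposited.

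Markers moved beside these genes as well. The leaf markers RCA, LHCB4.1 and LHCB4.2 rose, and the summed linear signal of the leaf list was 11452 in the wild-type array and reached 65440 in line 41 and 48983 in line 45. Of the root markers, PYK10, a beta-glucosidase of roots and seedlings, rose 1.85-fold, from 5.80 to 6.69 in each line (0.88 ± 0.20 on the log2 scale, limma adjusted p = 0.0191), and the root-hair expansin EXPA7 was dim, at 5.37, 4.96 and 5.12. The summed linear signal of the root list was 97.1, 134 and 138.1. The meristem gene CLV3 stood at 5.79, 5.46 and 5.45. The part of these shifts in the 40S result was not tested.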

How the data were processed

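In the table deposited by the authors each feature has 1 value per array, read as log2 expression because values lie between 4.04 and 14.8 with none negative. The sources used here do not give the log base, the platform, the background correction or how the authors normalized, and another base would change every fold. Values were kept as deposited, raised to a floor at the 5th percentile (4.68), and features were kept where their mean over the 3 arrays reached the 40th percentile (5.64). The feature with the highest mean stood for a gene. Features were named through Entrez genes (17579 named by 1 gene, 0 by several, 11206 unnamed here) and RefSeq loci of TAIR10.1 (17491 matched), with no coordinates used.

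Line 41 and line 45 together were set against wild type with R 4.3.3 and limma 3.58.1 (eBayes with trend, two-sided, Benjamini-Hochberg over 16905 features). Residual degrees of freedom numbered 1, and prior ones 6.76, with a median standard error of 0.22. The fit was tested on simulated data with known changes. There wild type was given the spread of the lines, and neither floor nor dim filter was applied. The simulation therefore cannot check the unknown spread of the real wild-type array or the effect of the filter. Counts past 2-fold carry no test. For arrays, their number limits the precision. Alternatives covered the scaling, the floor, the filter, the feature that stands for a gene, the variance trend and each line left out. Folds of features dim in wild type raise that side to 5.64.

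Members and gene lists were chosen with earlier results of these data known. Values in every array were written out for the 10 members with the greatest and the 10 with the lowest mean change, for dim members and for the extremes of each family; other members may be named too, as may the called genes with the greatest change in each other list.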

Additional observations from a re-analysis of the deposited data

Results flagged for a closer look

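AT5G15520, an S19 gene, was the only tested 40S gene whose lines lay on opposite sides of wild type, with log2 changes of -0.10 (line 41) and 0.32 (line 45), which are -0.42 apart. Its values straddled the dim level, and the difference was not tested, since each line had 1 array.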

How the results depend on the processing

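No paired analysis was possible, since there was 1 wild-type array against 1 array of each line and the labels give no pairs. Without the dim filter but with the floor kept, limma called 0 of 45 genes of the 40S list and 0 features either way, with 32 of the 45 higher at an unadjusted p under 0.05. The prior degrees of freedom were then 1.42 against 6.76, and with neither floor nor filter 31 of 45 were called. The median change of the 40S genes was 1.32 after quantile normalization, 1.40 after cyclic loess, 1.43 without the dim filter, with or without the floor, and 1.63 with the filter at the 60th percentile. It was 1.46 to 1.60 when either line was left out, and 28 genes were then 2-fold higher in the line that was left. Over all features the lower calls went from 1229 to 2660 after quantile normalization, 1850 with the filter on the wild-type value and 1894 with neither floor nor filter. The sign turned for AT2G05220 and AT1G48830 after quantile normalization (-0.30 and -0.33) and cyclic loess (-0.16 and -0.13), and for AT2G39590 after cyclic loess (0.0057). It also turned for AT5G15520 when line 45 was left out (-0.10 against 0.11 with both lines). The cause was not tested. In all, 613 of the 667 values of single genes under the alternatives were counted as unchanged. Of the rest, 42 lost the call, 32 of these without the dim filter, 7 gained it and 5 turned. The 613 include 42 values for each line left out, which have no call to keep. Among these is the turned sign of AT5G15520, so it is not one of the 5. Leaving out a line leaves no residual degree of freedom, so those values have no test. No sequence table was among the sources used here, so motifs were not searched.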
